A study of Mus musculus with 11 samples.

Results

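miR-22 is a microRNA made from a single mouse hairpin, Mir22, which gives a 3p and a 5p arm. Both arms, mmu-miR-22-3p and mmu-miR-22-5p (called miR-22-3p and miR-22-5p), were taken from the count table by name, 2 of its 1281 mature miRNA names, and both passed the filter on low counts. They were chosen by the read counts of these libraries, in which miR-22-3p was abundant and differed several-fold within one genotype, so its level and that spread are given as a description without a test. Small RNA was sequenced from mouse liver on a C57/B6 background, in 11 libraries of which 5 were G4 p53+/+ and 6 were G4 p53-/-. All mice were telomerase knockouts with short telomeres, the p53+/+ group included. The p53+/+ group kept the tumour suppressor p53 and the p53-/- group lacked it, and none had been treated. The labels give neither the age of the mice nor whether each library came from its own animal. The p-values therefore reflect only how far these libraries differed, which may be technical. Mice with intact telomerase were not analysed here. Libraries are called by the numbers of their titles, 1 to 5 for p53+/+ and 6, 7, 8, 10, 11 and 12 for p53-/-.

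A microRNA is cut from its hairpin as a duplex, and usually one strand is kept to guide the repression of messenger RNAs while the other is degraded. The strand finds its targets mainly through its seed, the bases just after its 5′ end. miR-22-3p is the main guide strand of Mir22 in most tissues and is abundant in liver, heart and skeletal muscle. It has been reported to repress Hdac4 and Sirt1, both deacetylases, and has been studied in lipid and glucose metabolism, in senescence and as a miRNA that responds to p53.

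The sequences are shown because the arms, which come from one transcript, differed from each other in how they varied between libraries. They are those of RefSeq on GRCm38.p6. In the arms the seed, bases 2 to 8, is in capitals. In the hairpin of 95 nt the arms are in capitals, with the 5p arm at bases 19 to 40 and the 3p arm at bases 57 to 78.
miR-22-3p: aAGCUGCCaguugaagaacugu
miR-22-5p: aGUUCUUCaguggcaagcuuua
Mir22 hairpin: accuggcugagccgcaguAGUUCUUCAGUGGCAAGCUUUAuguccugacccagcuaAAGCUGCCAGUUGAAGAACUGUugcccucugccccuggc

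Both arms are 22 nt long. Among the 1679 mature names of the RefSeq table, 0 others carry the seed of miR-22-3p and 0 others that of miR-22-5p, so neither arm has a seed family there whose reads could be set beside it. The hairpin lies on the plus strand of chromosome 11, from 75463716 to 75463810. GENCODE M21 places it within exon 2 of the long noncoding RNA Mir22hg and within exon 2 of a noncoding transcript of Tlcd2. The 3p arm spans 75463772 to 75463793 and the 5p arm 75463734 to 75463755. The deposited table lists 1 hairpin for each arm, so these counts are not split between copies.

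Total counts ran from 1905609 to 6682492 per library. Libraries 1 and 2 were the shallowest, and they stood apart from the others on the first principal component, as library 6 did on the second. miR-122-5p, the defining miRNA of hepatocytes, made up between 52.4% and 64.0% of the counts in every library. The spread and the genotype differences that rest on these libraries are given with and without them.

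miR-22-3p was the 14th most abundant of the 388 miRNAs tested and its level ranged widely within each genotype through libraries 1, 2 and 6. In CPM, the reads of a miRNA scaled to a library of fixed size, p53+/+ libraries 1 to 5 held 21968, 39258, 7725, 8529 and 6298. The p53-/- libraries 6, 7, 8, 10, 11 and 12 held 3090.2, 8350.2, 9293, 9644, 7899 and 12037 CPM. The first pair, libraries 1 and 2, stood above all others, library 6 was lower than all others, and libraries 3, 4 and 5 lay within the range of the p53-/- libraries. The highest level was 6.23 times the lowest among p53+/+ libraries and 3.90 times the lowest among p53-/- libraries. Among p53+/+ libraries 3, 4 and 5 alone it was 1.35 times the lowest, and among p53-/- libraries without library 6 it was 1.52 times the lowest. By rank, miR-22-3p was the 2nd most abundant miRNA in library 2, the 7th in library 1, and between the 14th and the 23rd in the other libraries. Counting error was small beside these gaps, because each value rested on between 16205 and 80434 reads. In library 6 the 95% Wilson interval was 3043 to 3138 CPM, and in library 2 it was 38983 to 39534 CPM. The tables count reads, not molecules, so such intervals cover counting error only.

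**Figure D1:**
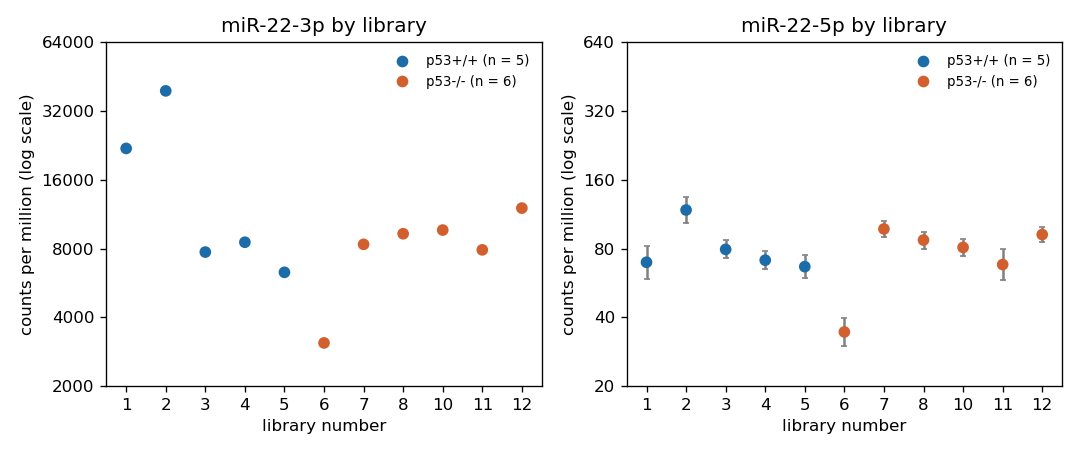
Level of each arm of miR-22 in CPM (log axes of the same number of doublings) against the library number, with p53+/+ in blue, p53-/- in orange and 95% Wilson intervals as bars, which are smaller than the points for miR-22-3p. For miR-22-3p libraries 1 and 2 stand at 21968 and 39258 CPM, while for miR-22-5p library 1, at 69.7 CPM, lies among the other libraries.

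miR-22-5p, the minor strand, was scarce and more even. Its level in p53+/+ libraries 1 to 5 was 69.7, 118, 79.4, 71.2 and 66.7 CPM. In p53-/- libraries 6, 7, 8, 10, 11 and 12 it was 34.5, 97.5, 87.2, 80.9, 68.1 and 92.2 CPM. Library 6 was again the lowest and library 2 the highest, but library 1 was the 4th lowest of the 11, and the genotypes overlapped. The highest level was 1.77 times the lowest among p53+/+ libraries and 2.83 times the lowest among p53-/- libraries. Among p53+/+ libraries 3, 4 and 5 alone it was 1.19 times the lowest. Among p53-/- libraries without library 6 it was 1.43 times the lowest. These values rested on 137 to 650 reads, so the Wilson interval of library 1 ran from 59.0 to 82.4 CPM.

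With all libraries included, the spread of miR-22-3p was wide for a miRNA of its level. Among the 49 miRNAs with a mean of at least 1000 CPM after TMM scaling, edgeR's correction for library composition, the SD of log2 normalised CPM between p53+/+ libraries was 1.01 for miR-22-3p against a median of 0.38. It ranked 2nd there, after miR-5109 with 1.11. Between p53-/- libraries it was 0.62 against a median of 0.26, and it ranked 5th. Without libraries 1 and 2 the SD in p53+/+ was 0.24 against a median of 0.19, ranked 12th. Without library 6 the SD in p53-/- was 0.34 against a median of 0.24, ranked 9th. These 3 libraries held the 2 highest levels of miR-22-3p and the lowest, so a narrower spread without them was built in. The 10 most abundant miRNAs, led by miR-122-5p, miR-192-5p, let-7g-5p, miR-21a-5p and miR-148a-3p, had highest-to-lowest ratios of normalised CPM between 1.31 and 2.35 in p53+/+ and between 1.34 and 2.69 in p53-/- libraries. On that scale the ratios of miR-22-3p were 5.06 and 3.02. miR-378a-3p, a miRNA of the Ppargc1b locus next above miR-22-3p in level, had an SD of 0.38 in p53+/+ and 0.62 in p53-/- libraries. For miR-22-5p the SD was 0.24 in p53+/+ and 0.51 in p53-/- libraries. With all libraries the order of the genotypes by spread was thus the opposite of that of miR-22-3p. Without libraries 1 and 2 the SD of miR-22-3p was also larger in p53-/-, at 0.24 in p53+/+ and 0.62 in p53-/- libraries. That contrast left library 6 in the p53-/- group, where the SD was 0.34 without it. The difference in spread between genotypes was not tested.

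**Figure D2:**
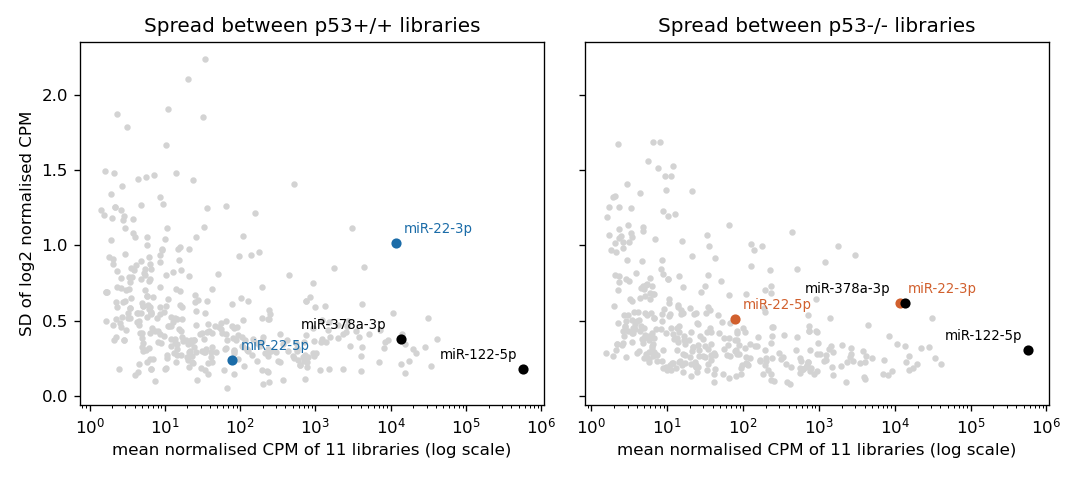
SD of log2 normalised CPM between libraries of one genotype against the mean normalised CPM of 11 libraries (log axis), each grey point being 1 of the tested miRNAs with no count of 0 in that genotype. miR-22-3p stands at an SD of 1.01 in p53+/+, above miRNAs of like level such as miR-378a-3p at 0.38, and beside miR-378a-3p in p53-/- libraries, at 0.62 for both.

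In CPM, library 6 was low in both arms, library 1 was high in the 3p arm alone, and library 2 was high in both, more so in the 3p arm. The ratio of the arms, which needs no scaling between libraries, set libraries 1 and 2 apart from the others but not library 6. There were 315 reads of miR-22-3p for each read of miR-22-5p in library 1 and 332 in library 2. The other p53+/+ libraries 3, 4 and 5 had 97.3, 119.8 and 94.4, and p53-/- libraries 6, 7, 8, 10, 11 and 12 had 89.5, 85.6, 106.6, 119.1, 116.0 and 130.6. As a share of the reads of both arms, the 5p arm held 0.316% in library 1 (95% Wilson interval 0.268 to 0.374%) and 0.300% in library 2 (0.263 to 0.342%). The lowest of the other 9 libraries was library 12, at 0.760% (0.703 to 0.822%). The highest was library 7, at 1.15% (1.07 to 1.25%). Both libraries 1 and 2 thus lay below the other 9 with no overlap of their intervals, and library 6, at 1.10%, lay within the others.

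**Figure D3:**
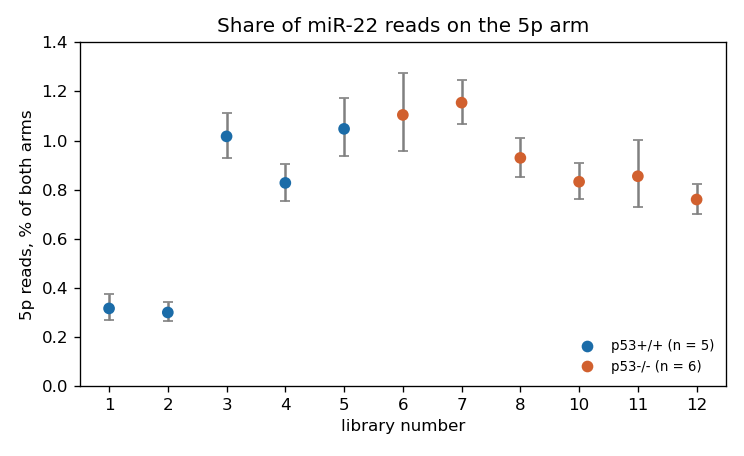
Reads of miR-22-5p as a percentage of the reads of both arms in each library, with 95% Wilson intervals as bars, p53+/+ in blue and p53-/- in orange. Libraries 1 and 2 sit at 0.316% and 0.300%, and the other 9 libraries between 0.760% and 1.15%.

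The arm ratio did not separate the genotypes. The mean of log2(5p reads / 3p reads) was -7.35 ± 0.91 (SD, n = 5) in p53+/+ and -6.74 ± 0.24 (SD, n = 6) in p53-/- libraries. The difference of 0.61, with the 5p arm relatively higher in p53-/-, did not exceed what the libraries varied by (exact permutation p = 0.188, two-sided, where the smallest possible is 0.00216). Without libraries 1 and 2 it was -0.05 (two-sided exact permutation p = 0.774 over 84 splits).

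Arms of other hairpins shifted in libraries 1 and 2 as well. Of 44 hairpins with at least 20 reads of each arm in every library and no second copy, libraries 1 and 2 lay outside the range of the other 9 in 16, or 36.4%. They lay below the other 9, as for Mir22, in 9, or 20.5%. The SD of the log2 arm ratio of Mir22 was 0.91 between p53+/+ libraries, which ranked 4th of the 44 where the median was 0.44. Between p53-/- libraries it was 0.24, ranked 31st, where the median was 0.27. A shift of the arms in libraries 1 and 2 was thus seen in other hairpins too, and among p53-/- libraries the arm ratio of Mir22 was close to the median hairpin in spread.

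How the arms moved together depended on which libraries were included. Over all 11 libraries Pearson's r of log2 normalised CPM was 0.62 (permutation p = 0.0451, 0.135 after Benjamini-Hochberg adjustment over 3 relations) and Spearman's rho was 0.60 (permutation p = 0.0578, adjusted 0.173). Leaving out libraries 2 and 6, the farthest from the median of miR-22-3p, and keeping library 1, r was 0.12 (exact permutation p = 0.755). Without library 6 alone r was 0.39 (permutation p = 0.264 after adjustment). Without library 1 alone it was 0.78 (permutation p = 0.0369 after adjustment). Among the 9 others than libraries 1 and 2, which stood apart, r was 0.91 (exact permutation p = 0.00145, adjusted 0.00435). Their rho was 0.73 (exact permutation p = 0.0311, adjusted 0.0433). Libraries 1 and 2 were also those whose arm ratio stood apart, so a higher r without them was built in. These 2 p-values are therefore a description only, and r without libraries 1, 2 and 6 was not computed. Within the 6 p53-/- libraries r was 0.92 (exact permutation p = 0.0333) but rho was 0.43 (exact permutation p = 0.419), and library 6 held the lowest value of both arms. The 5 p53+/+ libraries, and the p53-/- libraries without library 6, are too few for a correlation. The arms share the library and its scaling factor in each point.

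**Figure D4:**
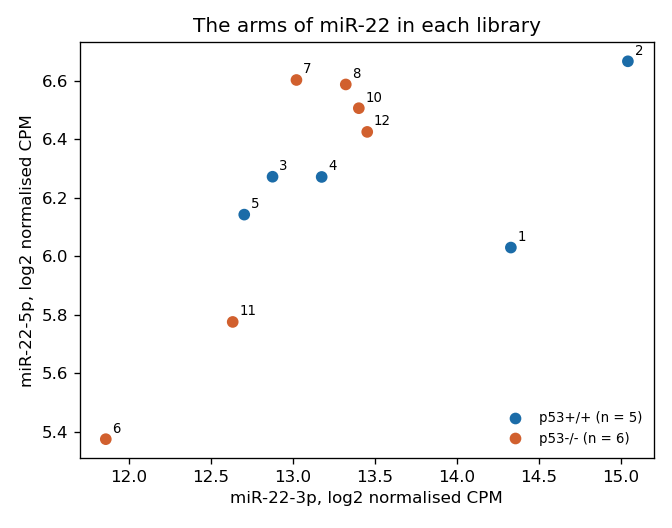
log2 normalised CPM of miR-22-5p against that of miR-22-3p, with each point 1 library marked by its number, p53+/+ in blue and p53-/- in orange. Libraries 1 and 2 lie to the right of the 9 others, among which r is 0.91, and library 6 lies lowest on both axes.

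Depth was set beside the levels because libraries 1 and 2 had the fewest reads. Over 11 libraries miR-22-3p and log2 total count had r = -0.52 (permutation p = 0.0953, adjusted 0.143) and rho = -0.02 (permutation p = 0.968). For miR-22-5p the values were r = 0.21 (permutation p = 0.560, adjusted 0.560) and rho = 0.30 (permutation p = 0.370). Leaving out the 2 libraries farthest from the median of the arm gave r = -0.25 for miR-22-3p and 0.20 for miR-22-5p. Without libraries 1 and 2 the sign for miR-22-3p was the opposite, with r = 0.43 (exact permutation p = 0.200) and rho = 0.80 (exact permutation p = 0.0138, adjusted 0.0415). For miR-22-5p these libraries gave r = 0.56 (exact permutation p = 0.126, adjusted 0.189) and rho = 0.70 (exact permutation p = 0.0433, adjusted 0.0433), so by rank both arms were higher in the deeper of the 9 libraries. Within p53-/- libraries r was 0.40 (exact permutation p = 0.365) for miR-22-3p and 0.56 (exact permutation p = 0.189) for miR-22-5p. Library 11, with 2202415 counts, was nearly as shallow as libraries 1 and 2. It held 7899 CPM of miR-22-3p, or 6353 normalised CPM, the scale of these correlations. On that scale library 11 was lower than every other library but library 6 in both arms, with miR-22-5p at 54.8.

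The study asked which miRNAs depend on p53, and neither arm of miR-22 passed that test. Mean normalised CPM of miR-22-3p was 15559 ± 11621 (SD, n = 5) in p53+/+ and 8446 ± 2945 (SD, n = 6) in p53-/- libraries. On the log2 scale p53-/- minus p53+/+ came to -0.88 (SE 0.42), and its 95% interval reached from -1.77 to 0.01. Over 388 miRNAs edgeR's quasi-likelihood fit gave it an adjusted p = 0.293. The ranges overlapped, and 3 of 6 p53-/- libraries were below the p53+/+ median. The difference of mean log2 values was -0.68 (two-sided exact permutation p = 0.221). Without libraries 1 and 2 the edgeR log2 fold change was 0.14 (adjusted p = 0.851), so the direction rested on those 2 libraries. Without library 2 alone it was -0.44, and without library 1 alone -0.75 (adjusted p = 0.581 and 0.518 in edgeR).

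For miR-22-5p the genotype means were 78.4 ± 13.9 (SD, n = 5) and 77.7 ± 23.6 (SD, n = 6) normalised CPM. Here p53-/- minus p53+/+ came to -0.01 on the log2 scale (SE 0.23, adjusted p = 0.988 in edgeR). Its 95% interval reached from -0.51 to 0.49, so the interval spans changes from 0.703-fold to 1.41-fold. Its sign turned with the scaling, to 0.04 when counts were scaled to the total without miR-122-5p. Of the 388 miRNAs tested 1 was called, or 0.258%, namely miR-34a-5p, whose gene p53 switches on. It was lower in p53-/- libraries, with a log2 fold change of -3.33. The ranges of the genotypes did not overlap for 9 miRNAs, or 2.32%, and overlapped for both arms of miR-22. At an unadjusted p under 0.05 edgeR had 67 miRNAs, or 17.3%. miR-22-3p was not among them, with an unadjusted p of 0.0528, the 70th smallest. That p was near the threshold and fell below it in 10 of 24 alternative settings, with a range from 0.0142 to 0.626, whereas the adjusted p did so in 0.

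**Figure D5:**
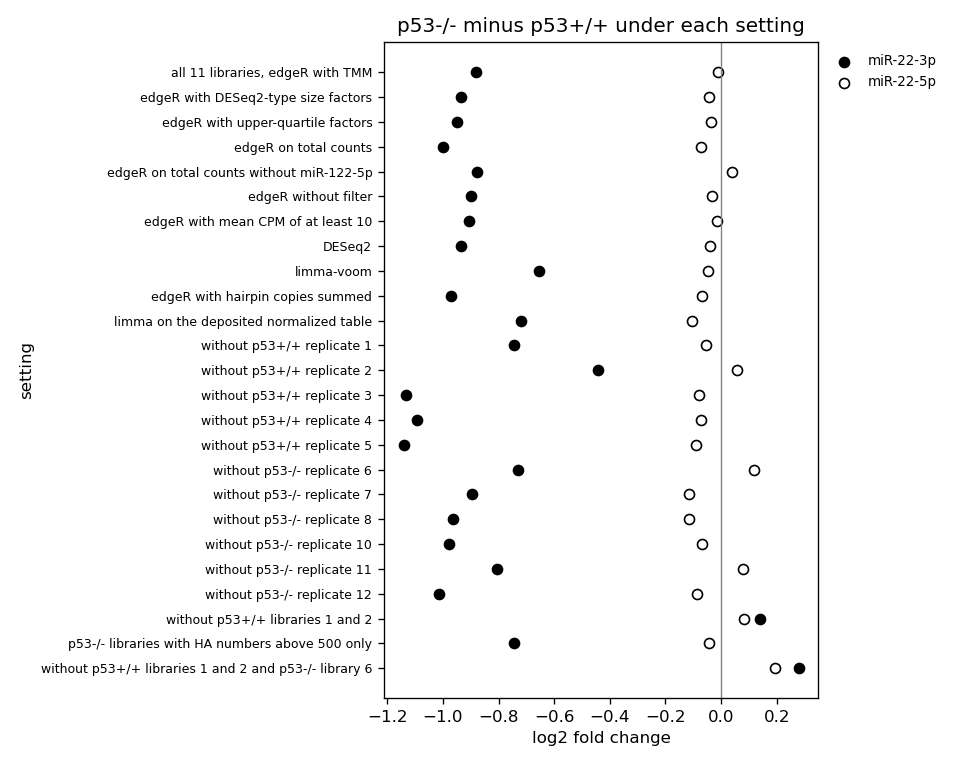
log2 fold change of p53-/- over p53+/+ for miR-22-3p (filled) and miR-22-5p (open) under each setting, in rows. The miR-22-3p values lie between -1.14 and -0.44 except in the 2 rows without libraries 1 and 2, at 0.14 and 0.28, and those of miR-22-5p lie between -0.11 and 0.19.

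The ratio of miR-22-3p to miR-122-5p within a library gave the same picture. It had to do so nearly, because miR-122-5p held a similar share of every library, 52.4% to 64.0% of the counts. This ratio is thus not a separate check on the values in CPM. There were 40.7 and 74.9 reads of miR-22-3p per 1000 reads of miR-122-5p in libraries 1 and 2, and 14.3, 14.8 and 11.7 in libraries 3, 4 and 5. The p53-/- libraries 6, 7, 8, 10, 11 and 12 had 4.83, 14.2, 16.1, 15.8, 14.6 and 22.8. Again libraries 1 and 2 were above all others and library 6, in which miR-122-5p had its highest share of counts, was below all others. The genotype difference of the log2 ratio was -0.82, from -5.40 ± 1.16 (SD, n = 5) to -6.22 ± 0.76 (SD, n = 6), and did not exceed what the libraries varied by (exact permutation p = 0.225, two-sided). Without libraries 1 and 2 it was -0.01 (two-sided exact permutation p = 0.964).

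The 5 tested miRNAs whose log2 normalised CPM followed that of miR-22-3p most closely over the 11 libraries were miR-181c-5p (r = 0.92), let-7i-3p (0.90), miR-345-3p (0.85), miR-361-5p (0.84) and miR-378a-5p (0.84). These r values chose the miRNAs and are a description, since the points share their library and scaling factor. Mature sequences, with the seed in capitals, are shown to let them be compared with miR-22-3p.
miR-181c-5p: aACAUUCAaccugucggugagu
let-7i-3p: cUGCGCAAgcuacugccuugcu
miR-345-3p: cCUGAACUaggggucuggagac
miR-361-5p: uUAUCAGAaucuccagggguac
Each seed differs from that of miR-22-3p, as any would, since 0 other names of the RefSeq table carry it. For miR-378a-5p that table held no sequence. miR-22-5p came 39th of the 387 other miRNAs in likeness to its own partner arm, at r = 0.62. For miR-181c-5p libraries 1 and 2 had 8.11 and 13.5 normalised CPM, and the others between 3.21 and 5.06. Without them r was 0.70 for miR-181c-5p, 0.71 for let-7i-3p, 0.73 for miR-345-3p and 0.47 for miR-361-5p. For miR-378a-5p, the minor arm of the miR-378a hairpin, r was 0.87 without them. Its level was lowest in library 6, at 80.7 normalised CPM, and highest in library 2, at 319.

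The lowest r with miR-22-3p were those of miR-3074-5p (-0.77), miR-704 (-0.76), miR-134-5p (-0.75), miR-300-3p (-0.74) and miR-200a-5p (-0.71). miR-704 had 0.954 and 2.71 normalised CPM in libraries 1 and 2 and between 18.4 and 29.8 in the others, and without those 2 libraries its r was 0.23. miR-134-5p and miR-300-3p belong to the imprinted Dlk1-Dio3 cluster, and without libraries 1 and 2 their r was -0.43 and -0.24. For miR-3074-5p and miR-200a-5p it was -0.56 and -0.20 without those libraries. miR-22-5p was followed most closely by miR-32-5p (0.83), miR-425-3p (0.81) and miR-1955-3p (0.76), and its lowest r were those of miR-20b-5p (-0.83), miR-101b-5p (-0.73) and miR-224-5p (-0.73). Without libraries 1 and 2 the r with miR-22-5p lay between 0.80 and 0.81 for the first 3 and between -0.89 and -0.71 for the last 3. Several of these miRNAs are scarce: miR-1955-3p averaged 1.41 normalised CPM, where 3 counts in a library stood for up to 1.57 CPM. miR-3074-5p averaged 1.82 normalised CPM, with 0.954 and 0.451 in libraries 1 and 2.

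A level above all others in libraries 1 and 2 was shared by other miRNAs. Both libraries were higher than each of the other 9 for 39 of the 388 miRNAs tested, or 10.1%, miR-22-3p included and miR-22-5p not. Library 6 was the lowest of all 11 for 65 of the 388 miRNAs, or 16.8%, both arms of miR-22 among them.

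Markers of other cell types were summed by list to see whether they moved with miR-22-3p, which is also abundant in muscle. The striated muscle list, with 7 of 7 names in the table, ranged from 4.58 to 42.2 CPM in p53+/+ and from 4.70 to 50.9 CPM in p53-/- libraries. Libraries 1 and 2 were at 4.58 and 15.7 CPM, below library 4 at 42.2, and the cardiac miR-208a-3p and miR-208b-3p had 0 reads in all libraries. The muscle list was at most 50.9 CPM in any library, and its part in the level of miR-22-3p was not tested. The red-cell list (5 of 5 names, 0 of them at 0) was at 567 and 750 CPM in libraries 1 and 2, within the range of 529 to 1352 CPM over all libraries. The leukocyte list (6 of 8) was at 219 and 279 CPM there, within 172 to 344 CPM over all libraries.

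The endothelial list, of which both arms of miR-126 were in the table (2 of 4 names, the others being alternative spellings), had the same highest and lowest library as miR-22-3p. It was highest in library 2, at 12805 CPM, and lowest in library 6, at 5439 CPM. Library 1, at 6414 CPM, was however the lowest of the p53+/+ libraries, and library 3 held 11009 CPM. The stellate and mesenchymal list (5 of 6 names) was at 5466 and 5627 CPM in libraries 1 and 2, within 5082 to 8868 CPM over all libraries. The biliary and epithelial list (6 of 6) was at 1169 and 1933 CPM there, within 832 to 3077 CPM. The pancreas list (4 of 4) was highest in library 5, at 387 CPM, and stood at 3.05 and 102 CPM in libraries 1 and 2. The hepatocyte list (5 of 6) was highest in library 6, at 702735 CPM, where miR-22-3p was lowest, and lowest in library 2, at 589604 CPM, where miR-22-3p was highest. In library 1 it stood at 619611 CPM, within the range of the others. Most of this list was miR-122-5p, which alone held 64.0% of the counts in library 6 and 52.4% in library 2. Values in CPM share a fixed total per library, so this list and miR-22-3p are not independent. The part of these cell types in the level of miR-22 was not tested, and in whole liver fewer cells of a type and less RNA per cell cannot be told apart.

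Other miRNAs reported to act on the same processes were taken from 2 lists. Of 17 miRNAs reported to repress Sirt1, 12 were tested, and 1 fell and 0 rose in p53-/- libraries. The 1 that fell was miR-34a-5p, the only call among all 388 miRNAs (0.258%). The median log2 fold change was -0.40, or -0.30 without miR-22-3p, beside -0.01 over all 388 miRNAs. The 3 with the smallest p were miR-34a-5p, miR-217-5p with -4.47 and miR-30c-5p with -0.51 (adjusted p = 7.07e-05, 0.174 and 0.174 in edgeR). miR-217-5p, a pancreatic miRNA that is also on the pancreas list, had 40.7 ± 69.4 (SD, n = 5) normalised CPM in p53+/+ and 1.78 ± 1.06 (SD, n = 6) in p53-/- libraries. The pancreas list was highest in p53+/+ library 5, and its part in this value was not tested. Of 18 miRNAs of lipid and glucose metabolism, 16 were tested and 0 passed. Their median was -0.02, or -0.01 without miR-22-3p. The 3 with the smallest p were miR-30c-5p, miR-22-3p itself and miR-27a-3p, an adipogenesis inhibitor with a log2 fold change of -0.51 (adjusted p = 0.330 in edgeR). Summed over the Sirt1 list without miR-22-3p, libraries 1 and 2 held 7227 and 8082 CPM, and the other 9 held between 4512 and 6845 CPM.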

How the data were processed

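Small RNA libraries were made from total RNA of 50 mg of liver, per the labels' protocols. The deposited tables give, per mature miRNA and hairpin, the count of reads and a CPM value, which the authors scaled so that each library sums to the same total. The submitters' processing notes name GRCm38 and limma, and the sources used here name neither aligner nor counter. Where a mature name had several hairpins, the highest count was kept, giving 1281 names. edgeR 4.0.16 in R 4.3.3 filtered low counts with filterByExpr at its defaults, which left 388 names, scaled libraries by TMM, and compared genotypes by the quasi-likelihood test with Benjamini-Hochberg adjustment at 0.05. DESeq2 1.42.0 and limma 3.58.1 served as alternatives. Ratios were compared by exact permutation of the genotype labels, and correlations by exact permutation or 100000 resamples (scipy 1.17.1). The test was checked on simulated data.

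In all 25 pairs of libraries within a genotype the counts differed beyond sampling noise, so none was a copy of another; 2 preparations of 1 animal would differ too and cannot be told apart. Total counts of 1905609 to 6682492 made 3 counts worth 0.449 to 1.57 CPM. The miRNAs named were both arms of miR-22, miR-34a-5p, the 10 most abundant miRNAs, those with the 5 highest and 5 lowest r with miR-22-3p and the 3 highest and 3 lowest with miR-22-5p, and the 3 with the smallest p in each of 2 lists. Further miRNAs (miR-5109, miR-378a-3p and cell type markers) were named after their values were seen or as parts of lists. The members and lists were chosen with earlier results of these data known. Single libraries far from their group were looked for (Dixon's test) in miR-22-5p only, since the spread of miR-22-3p chose the members, and none was found; such a test of values holding miR-22-3p was dropped. Scalings, filters, tests and left-out libraries were varied as alternatives.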

Additional observations from a re-analysis of the deposited data

How the results depend on the processing

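No paired analysis was possible because the library numbers run on across both genotypes and no number occurs in both. The direction of the genotype difference of miR-22-3p rested on libraries 1 and 2. Its log2 fold change was -0.88 with all libraries, -1.14 to -0.44 when 1 library at a time was left out, 0.14 without libraries 1 and 2, and 0.28 without these and library 6, the last, like the spread without these libraries, a choice made after seeing the data. Its adjusted p stayed between 0.172 and 0.851 over all alternatives, DESeq2 included. For miR-22-5p, near 0 throughout, the value was 0.041 on total counts without miR-122-5p, 0.081 without libraries 1 and 2, 0.19 without libraries 1, 2 and 6, and -0.11 to 0.12 when 1 library was left out, being above 0 without library 2 (0.06), library 6 (0.12) or library 11 (0.08). The number of miRNAs called was 1 in every setting but DESeq2, which called 7 (3 higher, 4 lower).

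The difference in arm ratio was -0.047 without libraries 1 and 2 and 0.36 to 0.81 when 1 library was left out. The difference in the ratio to miR-122-5p was -1.08 to -0.41 when 1 was left out. The correlation of the arms ran from 0.39 to 0.78 when 1 library was left out, passing 0.05 after adjustment without library 1 (0.78, permutation adjusted p = 0.0369), and was 0.91 without libraries 1 and 2. That of miR-22-3p with depth was -0.72 to -0.24 when 1 was left out and 0.43 without libraries 1 and 2. That of miR-22-5p with depth was 0.04 to 0.51 when 1 was left out and -0.082 on CPM over total counts. The cause of these changes was not tested. Depth limits miR-22-5p, with as few as 137 reads, more than miR-22-3p.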

Other observations

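Hairpins other than Mir22 also had an arm ratio in libraries 1 and 2 outside the range of the other 9 libraries, and 3 of them are given here, chosen after their values were seen. For mir-27a, log2(5p reads / 3p reads) was -3.72 and -3.26 in libraries 1 and 2 and between -1.87 and -0.47 in the others, and its SD over 11 libraries, 1.01, was the largest of the 44 hairpins. For mir-1981 the ratio was also lower, at 1.42 and 2.26 against 2.74 to 4.30. For mir-140 it was higher, at -4.59 and -3.89 against -6.09 to -5.50. The arms of Mir22 had r = 0.62 over the 11 libraries, where the median of the 44 hairpins was 0.39 and mir-27a had -0.69. That of Mir22 rested on few libraries, being 0.39 without library 6 and 0.12 without libraries 2 and 6. The median of the hairpins was not taken again without these libraries.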
